A study of Mus musculus with 10 samples.

Results

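The miR-101 family was followed through mouse E14 embryonic stem cells and mutants of them without the proteins that make or hold miRNAs. Its members were chosen by name as 3 of the 1907 mature miRNA entries counted: miR-101a-3p and miR-101b-3p, the guide strands of separate loci, and miR-101a-5p, the passenger strand of the first locus. The choice was made because the counts of these entries differ between the 5 groups, and differently for the 2 guides. Their levels, ratios and fold changes are therefore given as a description without a test. All cells were E14, a 129/Ola line grown in 15% serum with LIF at 100 U/mL, and small RNA libraries were made from 1 µg of total RNA. The groups, with 2 libraries each, were wild type (WT), a Dgcr8 knockout (Dgcr8_KO), a Drosha knockout (Drosha_KO), a Dicer knockout (Dicer_KO) and a double knockout of Ago1 and Ago2 (Ago12_KO). The sample names hold P25 and P33 for WT, read here as passages though not spelled out, so the WT libraries come from different passages. Those of Dicer_KO hold C1 and H11, whose meaning is not given, so a difference between clones and a technical one cannot be told apart there. For Dgcr8_KO, Drosha_KO and Ago12_KO nothing says that replicates came from separate cultures or clones, so the spread between them may be technical. The names of the Dgcr8_KO and of the Ago12_KO libraries each begin with a date-like code that the other groups lack, so such a difference and the genotype cannot be told apart.

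A canonical miRNA is cut from its primary transcript by the Microprocessor, in which Drosha is the nuclease and Dgcr8 the RNA-binding partner. Dicer then cuts the hairpin into a duplex, and an Argonaute protein such as Ago1 or Ago2 keeps the guide strand while the passenger strand is lost. miR-101 is best known for repressing Ezh2, a Polycomb histone methyltransferase, as first shown in human cancer cells.

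The mature sequences (RefSeq, GRCm38.p6) are shown 5′ to 3′ because the comparison of the 2 loci rests on how little their guides differ. Capitals mark the seed, bases 2 to 8, which pairs with target mRNAs.
miR-101a-3p: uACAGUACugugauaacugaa
miR-101b-3p: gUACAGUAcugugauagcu
miR-101c: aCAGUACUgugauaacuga
miR-101a-5p: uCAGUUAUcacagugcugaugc
The annotated miR-101b-3p starts 1 base upstream of miR-101a-3p, so that the annotated seeds are ACAGUAC and UACAGUA. Over the 18 bases that both annotations cover, 17 are the same. The single difference is A16G, counted from the 5′ end of miR-101a-3p with its base first and that of the Mir101b hairpin second. Only reads that reach this base tell the guides apart. miR-101c, which is not a member, is bases 2 to 20 of miR-101a-3p without a difference. How the authors assigned reads that match several entries or carry a mismatch is not given in the sources used here, so counts of these 3 entries are uncertain to the extent that reads were split between them.

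The hairpins are shown with both mature arms in capitals, because the loci differ more in the passenger arm and the loop than in the guide.
Mir101a: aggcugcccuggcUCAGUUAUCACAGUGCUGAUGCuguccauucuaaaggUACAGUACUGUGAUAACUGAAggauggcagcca
Mir101b: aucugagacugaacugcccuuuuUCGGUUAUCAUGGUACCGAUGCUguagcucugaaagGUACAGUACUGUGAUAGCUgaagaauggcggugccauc
Mir101a spans 83 bases on chromosome 4, at 101346945 to 101347027 on the minus strand, inside an exon of the lincRNA E130102H24Rik (GENCODE M21, GRCm38). Mir101b spans 97 bases on chromosome 19, at 29135279 to 29135375 on the plus strand, in an intron of Rcl1, a protein-coding gene with a role in ribosomal RNA processing. miR-101a-5p matches the Mir101b hairpin at 17 of 22 bases, with A3G, C11U, A12G, G15A and U17C, so the passengers are told apart by 5 bases where the guides differ by 1. The miR-101c entry is annotated on chromosome 9, at 3038680 to 3038698 on the minus strand, 364 bases from the gene Gm10715.

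The libraries held 37476 to 2357868 miRNA counts. Levels are given as CPM, each library scaled to 1000000 miRNA counts, and 1 count stood for 0.424 CPM in the deepest library and 26.7 CPM in the shallowest. These totals cover miRNA entries only. The mean WT total exceeded that of Dgcr8_KO 6.16 times, that of Drosha_KO 53.9 times, that of Dicer_KO 52.0 times and that of Ago12_KO 7.43 times. A CPM is thus a share of the miRNA counts, and fewer miRNAs per cell and fewer reads sequenced cannot be told apart. Stem cell miRNAs of the miR-290 to miR-295 and miR-302 and miR-367 clusters held 15.8% to 20.7% of the counts in the WT, Dgcr8_KO and Drosha_KO libraries, 10.3% to 11.3% in Ago12_KO and 1.55% to 1.63% in Dicer_KO. No listed miR-302 or miR-367 entry averaged above 90.8 CPM in a group, so nearly all of this share was miR-290 to miR-295. Members moved apart under the sum: from WT to Drosha_KO, miR-295-3p went from 101528 to 26705 CPM and miR-291a-5p from 12441 to 40519. Summed markers of fibroblasts, neural cells and muscle stayed at or below 0.660% in every library. The fibroblast sum was 0.407% to 0.660% in Drosha_KO, against 0.261% to 0.351% in WT. Its members moved apart: from WT to Ago12_KO, miR-10b-5p went from 59.8 to 645 CPM, miR-143-3p from 2851 to 1461 and miR-199a-3p from 110 to 37.3. In Ago12_KO the 6 blood markers reached 0.866% to 1.13%, against 0.350% to 0.564% in Dgcr8_KO and Drosha_KO and 0.135% to 0.176% in WT, with miR-144-3p, miR-451a and miR-223-3p at 0. The 4 liver, gut and endoderm markers reached 0.662% to 1.16% there, against 0.154% to 0.160% in WT, with miR-122-5p at 0. That rise was in miR-192-5p, from 1375 to 9008 CPM, while miR-194-5p went from 186 to 79.6 CPM and miR-215-5p from 9.80 to 5.73 CPM. Whether these markers have a part in the Ago12_KO values was not tested.

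mmu-miR-101a-3p (miR-101a-3p) had 6584 and 5475 counts in the WT replicates, or 2792 and 2817 CPM, and ranked 52nd and 47th of all entries. It stood at 6051 and 6507 CPM in Dgcr8_KO and at 5872 and 6401 CPM in Drosha_KO. In Ago12_KO it stood at 4832 and 4760 CPM. These 6 libraries were all above both WT libraries. In Dicer_KO, by contrast, the guide had 4 and 17 counts, or 88.5 and 454 CPM (95% exact Poisson intervals 24.1 to 226 and 264 to 726), below every other library of the study. The Dicer_KO libraries differed from each other by more than counting error.

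mmu-miR-101b-3p (miR-101b-3p) started from a lower level and followed another course. It had 3381 and 2871 counts in WT, or 1434 and 1477 CPM. Dgcr8_KO held 1668 and 1184 CPM and Drosha_KO 1594 and 1464 CPM, and both groups overlapped WT. In Ago12_KO the guide was at 575 and 785 CPM, below both WT libraries. No count was seen in either Dicer_KO library, where the floor of 3 counts is 66.3 and 80.1 CPM.

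mmu-miR-101a-5p (miR-101a-5p), the passenger strand, was counted 199 and 144 times in WT, or 84.4 and 74.1 CPM. It was at 65.6 and 53.8 CPM in Dgcr8_KO, below both WT libraries, though the ratio of summed counts, 0.736 (95% exact interval 0.519 to 1.02), does not exclude an equal share. Ago12_KO held 172 and 196 CPM, above both WT libraries. Drosha_KO and Dicer_KO had 1 count in each library, 25.3 and 24.8 CPM and 22.1 and 26.7 CPM, which is under the floor of 3 counts and sets no level.

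**Figure D1:**
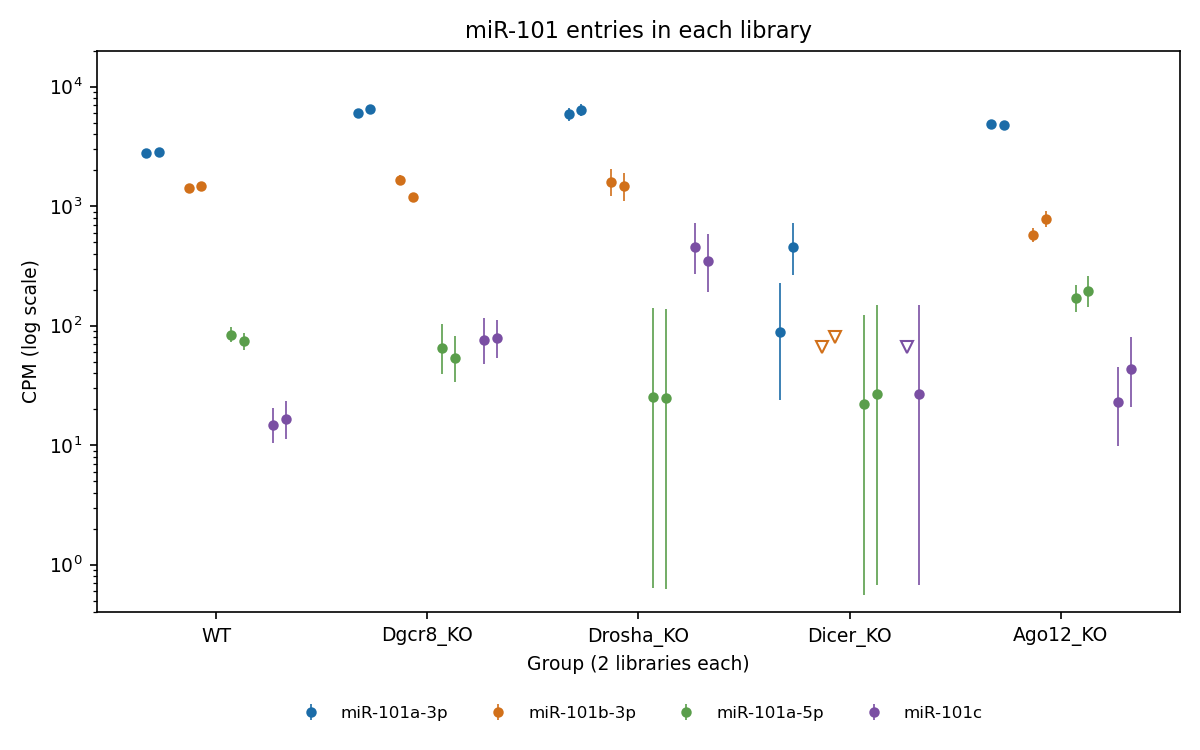
CPM of the miR-101 entries (log scale) in each of the 2 libraries of a group, with 95% exact Poisson intervals for counting error; open triangles mark libraries with no count, drawn at 3 counts. miR-101a-3p is at 2792 to 6507 CPM outside Dicer_KO, while miR-101b-3p is at 1184 to 1668 CPM in WT, Dgcr8_KO and Drosha_KO, 575 and 785 CPM in Ago12_KO and 0 in Dicer_KO; both are shares of each library's own total.

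The balance of the 2 guides can be read within each library, where library size does not enter. miR-101a-3p made up 66.1% and 65.6% of the counts of both guides in the WT replicates (95% Clopper-Pearson intervals 65.1 to 67.0% and 64.6 to 66.6%). It made up 78.4% and 84.6% in Dgcr8_KO (76.6 to 80.1% and 83.3 to 85.8%) and 78.6% and 81.4% in Drosha_KO (73.5 to 83.2% and 76.7 to 85.5%). The share was 89.4% and 85.8% in Ago12_KO (87.9 to 90.7% and 83.8 to 87.7%). Every library of these 3 mutants was above both WT libraries, and their intervals did not reach those of WT.

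Group means of this share were 65.8% ± 0.333 in WT, 81.5% ± 4.39 in Dgcr8_KO, 80.02% ± 1.94 in Drosha_KO and 87.6% ± 2.48 in Ago12_KO (SD, n = 2). In order of level, Drosha_KO and Dgcr8_KO overlapped, and Ago12_KO lay above both. The lowest Ago12_KO library, at 85.8%, was close to the highest Dgcr8_KO library, at 84.6%, with overlapping intervals. The replicates of Dgcr8_KO and those of Ago12_KO differed by more than counting error. In Dicer_KO all 21 counts of the guides were miR-101a-3p, which allows a share as low as 83.9% by the 95% Clopper-Pearson interval of the summed counts. That limit lies above both WT libraries and below both Ago12_KO libraries, but it pools 2 libraries whose levels differ. Taken alone, Dicer_KO replicate 1 allows a share as low as 39.8% and replicate 2 as low as 80.5%, so replicate 1 does not part from WT. Intervals and floors cover counting error only.

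**Figure D2:**
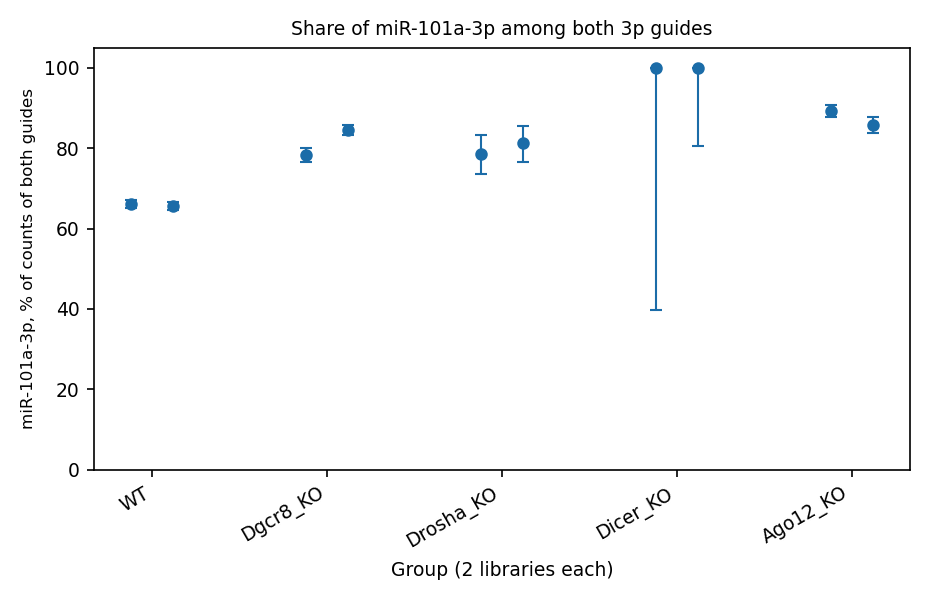
Share of miR-101a-3p (percent) among the counts of miR-101a-3p and miR-101b-3p in each library, with 95% Clopper-Pearson intervals. WT is at 66.1% and 65.6%, and the Dgcr8_KO, Drosha_KO and Ago12_KO libraries range from 78.4% to 89.4%; the Dicer_KO points rest on 4 and 17 counts.

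As a ratio, 1.93 counts of miR-101a-3p were seen per count of miR-101b-3p in WT, 4.56 in Dgcr8_KO, 4.02 in Drosha_KO and 7.30 in Ago12_KO (summed counts). The shift had different sides in CPM. miR-101a-3p was higher than WT in all 3 mutants, while miR-101b-3p was near WT in Dgcr8_KO and Drosha_KO and lower in Ago12_KO. With counts left unscaled, both guides were lower than WT in each mutant.

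The Dgcr8_KO comparison sets the family's share of the miRNA counts without the RNA-binding subunit of the Microprocessor against that in WT. Such a share does not measure how far the family depends on Dgcr8. The log2 fold change against WT was 1.16 (SE 0.42) for miR-101a-3p, -0.03 (SE 0.31) for miR-101b-3p and -0.42 (SE 0.34) for miR-101a-5p, in an edgeR quasi-likelihood fit over all 5 groups. The median over the 481 entries tested was -0.41, or -0.34 with entries that had no count in a group placed at their bound from 3 counts. At an edgeR adjusted p under 0.05, 73.4% of all entries tested were called, 32.4% as higher and 41% as lower. Among the 3 members, miR-101a-3p was called higher. Nothing is read from this, or from any call of a member below, since the values of the 5 groups chose the members. The call was lost with TMM factors, where the log2 fold change of miR-101a-3p was 0.86, and without either Dgcr8_KO replicate or either WT replicate. Unscaled counts turned it to -1.45.

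In Drosha_KO, which lacks the nuclease of the same complex, the log2 fold change was 1.13 (SE 0.42) for miR-101a-3p and 0.07 (SE 0.32) for miR-101b-3p, against a median of -0.87 over all entries, or -0.01 with the 113 entries at 0 in a group placed at their bound. With 2 counts over the group, miR-101a-5p was at 0.314 times its WT share, with a 95% exact interval from 0.0379 to 1.14 for counting error, which does not exclude an equal share. It was not called, but was called lower with TMM factors (log2 fold change -2.27) and unscaled (-7.25). Of all entries 57.8% were called, 26.2% higher and 31.6% lower, and of the members miR-101a-3p was called higher. TMM factors ended this call (log2 fold change 0.51), as did leaving out any 1 library of Dgcr8_KO or WT. Unscaled counts turned the value to -4.62. miR-101b-3p stood at -0.55 with TMM factors and -5.68 unscaled, so its direction is not fixed.

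Dicer_KO was the group in which both guides were lowest. miR-101a-3p had a log2 fold change of -3.41 (SE 0.51) beside a median of -2.78 over all entries, and 42.6% of the entries had a lower value. With entries at 0 placed at their bound, the median of all entries was -0.81. No miR-101b-3p was counted, which places it at least 40.1-fold lower than in WT, using 3 counts over the group. miR-101a-5p, with 2 counts, was at 0.303 times its WT share (95% exact interval 0.0366 to 1.10). Of all entries 55.9% were called, 13.3% higher and 42.6% lower, and both guides were called lower. The value of miR-101a-3p moved to -1.99 with DESeq2 size factors, to -2.01 in DESeq2 and to -2.49 when 5 fragment-like entries, some of which lead the Dicer_KO libraries, were left out of the totals. It was -4.98 without Dicer_KO replicate 2 and -2.63 without Dicer_KO replicate 1. miR-101a-5p, at -1.70, moved to -0.33 with DESeq2 size factors and -0.78 without the fragment-like entries, and was called lower with TMM factors (-1.99) and unscaled (-7.25).

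The Ago12_KO comparison asks how the family fares without the 2 Argonautes. Here the loci went apart. The log2 fold change was 0.77 (SE 0.41) for miR-101a-3p, 1.21 (SE 0.31) for miR-101a-5p and -1.10 (SE 0.31) for miR-101b-3p, against a median of -0.02 over all entries. Both arms of Mir101a were thus above WT and the guide of Mir101b below, except that unscaled counts placed all 3 below WT, at -2.12, -1.71 and -4.04. Of all entries 54.5% were called, 28.7% higher and 25.8% lower, and of the members miR-101a-5p was called higher and miR-101b-3p lower. As above, the calls of members are a description only. The first call was lost with TMM factors (log2 fold change 0.56) and without WT replicate 1 or WT replicate 2. The second was lost without Ago12_KO replicate 1, where the value was -0.89, or without either WT replicate. miR-101a-3p, not called, was called when only Ago12_KO and WT were fitted or without any 1 of the Drosha_KO and Dicer_KO libraries, and stood at 0.13 with TMM factors.

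**Figure D3:**
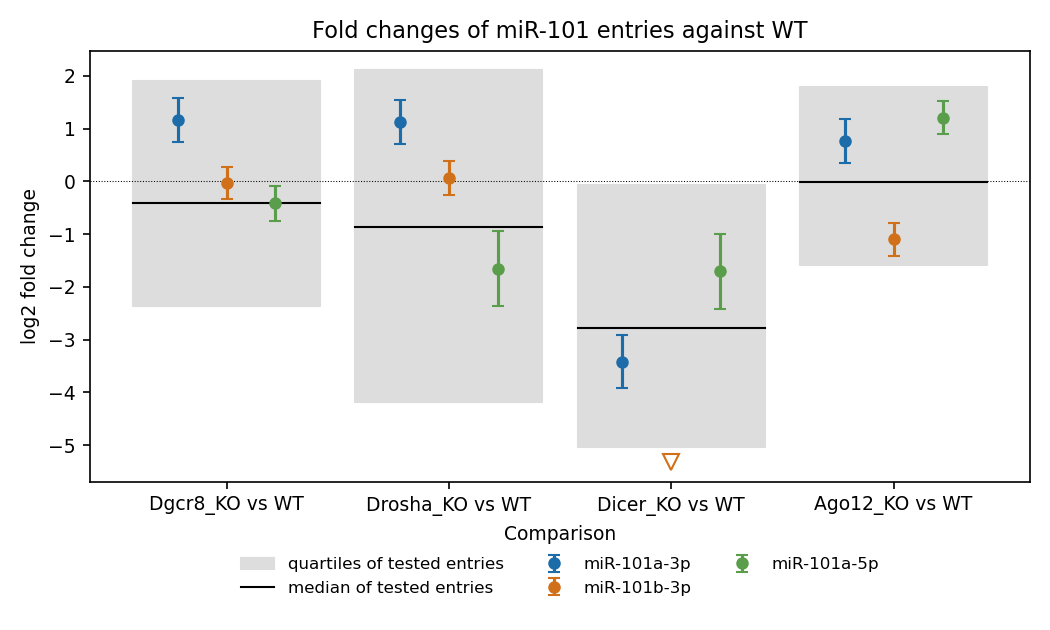
Log2 fold change against WT of the 3 members (points, with SE from the edgeR fit) over the quartiles (grey) and median (line) of the 481 entries tested; the open triangle is the bound for miR-101b-3p, which had no count in Dicer_KO. With library totals as the scale, miR-101a-3p is at 1.16, 1.13, -3.41 and 0.77 and miR-101b-3p at -0.03, 0.07 and -1.10 where counted; unscaled counts turn the values of miR-101a-3p above 0 to below 0.

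Set against each other, Dgcr8_KO and Drosha_KO held the guides at like shares of their miRNA counts, though their totals differ. miR-101a-3p was at 6279 ± 322 CPM in Dgcr8_KO and 6136 ± 374 CPM in Drosha_KO (SD, n = 2), and miR-101b-3p at 1426 ± 342 and 1529 ± 92.4 CPM. The log2 fold change of Dgcr8_KO over Drosha_KO was 0.03 (SE 0.42) for miR-101a-3p and -0.10 (SE 0.32) for miR-101b-3p, and its sign changed with the scaling. No member was called there, against 13.9% of all entries, 5.61% higher and 8.32% lower in Dgcr8_KO. Dicer_KO was 24.2 times below Drosha_KO for miR-101a-3p (95% exact interval 15.6 to 39.4 for counting error) and at least 42.1-fold lower for miR-101b-3p. The log2 fold change of miR-101a-3p there, -4.54, was -6.11 without Dicer_KO replicate 2 and -3.76 without Dicer_KO replicate 1. Both guides were called lower in that comparison, in which 43.9% of all entries were called and 30.4% were called lower. Ago12_KO exceeded Dicer_KO 18.9 times for miR-101a-3p (12.4 to 30.6), at least 18.1-fold for miR-101b-3p and 7.50 times for miR-101a-5p (2.03 to 62.8, from 2 counts in Dicer_KO). For miR-101a-3p the log2 fold change of 4.19 was 5.76 without Dicer_KO replicate 2 and 3.40 without Dicer_KO replicate 1. All 3 members were called higher there, beside 47.4% of all entries, 38.5% higher and 8.94% lower. The call of miR-101a-5p was lost with DESeq2 size factors and in DESeq2, with a log2 fold change of 1.30 in both.

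The strands of Mir101a kept a strong bias to the 3p arm, and the bias differed between groups. miR-101a-5p was 2.93% and 2.56% of both arms in WT (95% Clopper-Pearson intervals 2.55 to 3.36% and 2.17 to 3.01%). It was 1.07% and 0.821% in Dgcr8_KO (0.647 to 1.67% and 0.515 to 1.24%), below WT with intervals that did not meet. In Drosha_KO the share was 0.429% and 0.386%, each from 1 count, and 0.407% over both libraries (0.0493 to 1.46%). Ago12_KO held 3.43% and 3.96% (2.63 to 4.40% and 2.90 to 5.26%), above both WT values with overlapping intervals. The 5 and 18 counts of both arms in Dicer_KO set no useful share.

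Other hairpins give the scale of this change. Among 127 hairpins with both arms tested, the arm that was lower in WT was compared with the other arm by the difference of their log2 fold changes. In Dgcr8_KO the median over the 116 hairpins counted in both arms was -0.02 (quartiles -0.63 and 0.54), and miR-101a was at -1.58, with 8 hairpins lower. In Drosha_KO the median over 83 hairpins was 0.16, and miR-101a was at -2.78, with 1 hairpin lower, but on 2 counts of its 5p arm. Hairpins with no count of an arm in a group were left out, and many of these had lower fitted values than miR-101a in Drosha_KO. Its place there thus holds only among the hairpins counted. In Ago12_KO the median over 120 hairpins was 1.39 (quartiles 0.18 and 2.60) and miR-101a was at 0.43, between the quartiles, with 33 hairpins lower. This comparison of arms was chosen after the values were seen. The passenger of Mir101b, miR-101b-5p, had 4 and 4 counts in WT, 0.128% of both arms over the libraries (0.0552 to 0.252%), and no more than 1 count in any other library, too few to follow.

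miR-101c, whose letters all lie within miR-101a-3p, did not keep a constant ratio to it. WT had 35 and 32 counts of it and Dgcr8_KO 22 and 32. Drosha_KO, with far smaller libraries, had 18 and 14, Ago12_KO 8 and 10, and Dicer_KO 0 and 1. Its share of both entries was 0.529% and 0.581% in WT (95% Clopper-Pearson intervals 0.369 to 0.735% and 0.398 to 0.819%) and 1.24% and 1.19% in Dgcr8_KO (0.779 to 1.87% and 0.815 to 1.67%). In Drosha_KO it was 7.20% and 5.15% (4.32 to 11.1% and 2.84 to 8.49%), above every WT, Dgcr8_KO and Ago12_KO library, with intervals that did not meet theirs. The entry passed the filter on low counts through Drosha_KO and Dgcr8_KO, where it is high. Adding it to miR-101a-3p moved the mean share of miR-101a-3p among the guides from 80.02% to 81.02% in Drosha_KO and by less elsewhere.

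**Figure D4:**
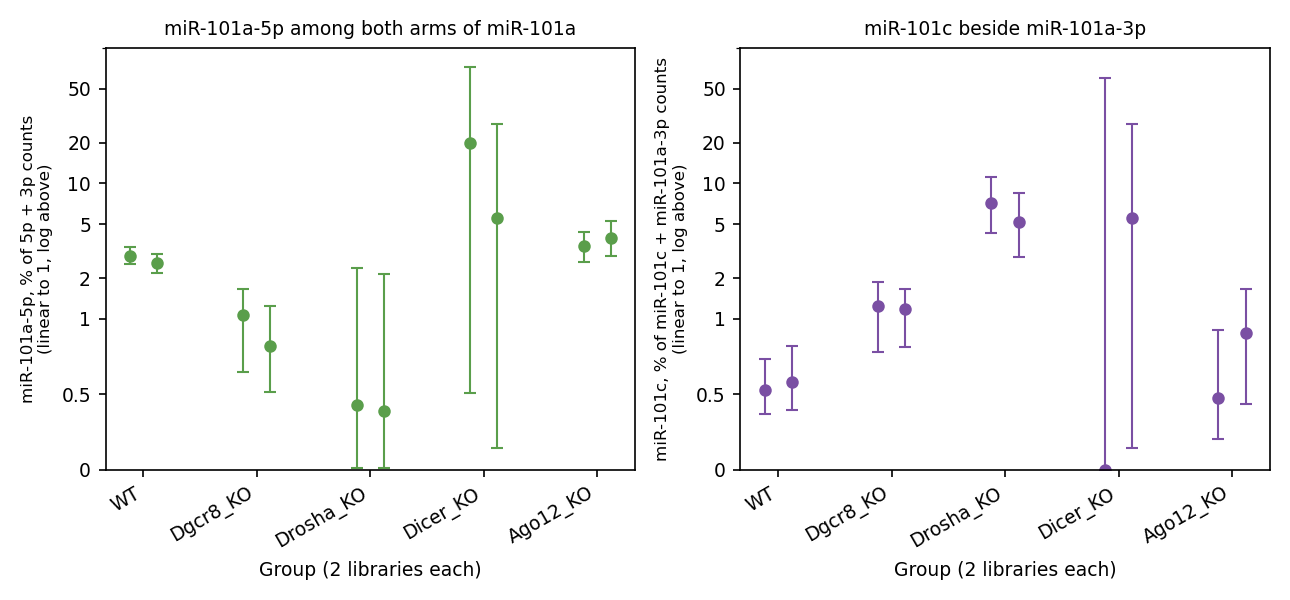
Left, miR-101a-5p as a percent of both arms of miR-101a; right, miR-101c as a percent of miR-101c and miR-101a-3p, in each library with 95% Clopper-Pearson intervals (axes linear to 1 and logarithmic above). miR-101a-5p is at 2.93% and 2.56% in WT and at 1.07% and 0.821% in Dgcr8_KO, and miR-101c is at 0.529% and 0.581% in WT and at 7.20% and 5.15% in Drosha_KO.

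Few other entries carry the same seed. Of the 1907 entries, 1623 had a RefSeq sequence. miR-144-3p, a red blood cell miRNA, shares bases 2 to 7 with miR-101a-3p and parts from it at base 8. It had 1 count in all libraries together. miR-582-5p shares bases 2 to 7 with the annotated miR-101b-3p and had 194 counts in 8 libraries, with a highest level of 111 CPM. No entry shared bases 2 to 8 with any of the 3 members.

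Entries with a like pattern were sought among the 481 tested by Pearson's r of log2 CPM over the 10 libraries. These libraries share their totals, and the low Dicer_KO values weigh on every r, so r is a description. The 3 entries most like miR-101b-3p were miR-26a-5p (r = 0.996), miR-194-5p (0.982) and let-7i-5p (0.980). Those most like miR-101a-3p were miR-129-5p (0.944), miR-26a-5p (0.940) and miR-92b-3p (0.937), with miR-101b-3p 6th at 0.930. For miR-101a-5p they were miR-7a-1-3p (0.973), miR-302d-3p (0.962) and miR-28a-3p (0.961), and its own guide came 221st, at 0.446. miR-101a-5p had 1 count in each Drosha_KO and Dicer_KO library, and these 3 entries had none there. Its r values thus rest in part on values at the floor.

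miR-26a-5p, an abundant miRNA that, like miR-101, has been reported to repress Ezh2, was 1st and 2nd on the lists of the guides. Ratios to it need no library total, but since it was picked for its likeness to the guides, a steady ratio follows in part from that choice, and they are given as a description only. Per 100 counts of miR-26a-5p there were 9.97 ± 0.493 counts of miR-101a-3p in WT, 20.6 ± 0.581 in Dgcr8_KO, 19.9 ± 4.42 in Drosha_KO and 19.8 ± 0.0245 in Ago12_KO (SD, n = 2). All libraries of these 3 mutants were above WT, and Drosha_KO, at 16.7 and 23.0, spanned the values of the other two. For miR-101b-3p the same ratio was 5.18 ± 0.332 in WT, 4.70 ± 1.23 in Dgcr8_KO, 4.90 ± 0.504 in Drosha_KO and 2.81 ± 0.645 in Ago12_KO. In Dicer_KO miR-101a-3p was at 5.80 and 29.8 per 100, below WT in replicate 1 and above it in replicate 2. In Dicer_KO there were 126 counts of miR-26a-5p and none of miR-101b-3p, which is below 2.38 per 100 at 3 counts over the group. The WT ratio lies above this floor, but it pools 2 libraries. Taken alone, Dicer_KO replicates 1 and 2 have floors of 4.35 and 5.26 per 100. The WT replicates, at 4.94 and 5.41, are both above the first, but WT replicate 1 is below the second.

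Other miRNAs reported to repress Ezh2 in some setting moved in several directions. Of a list of 10, 7 were tested. In Dgcr8_KO 2 were higher, 2 lower and 3 not called, where 32.4% of all entries were higher and 41% lower. The median log2 fold change was 0.11 beside -0.41 over all entries, and the list median turned to -0.19 with TMM factors and -2.51 unscaled. In Drosha_KO 3 were higher and none lower, where 26.2% of all entries were higher and 31.6% lower. The median was 1.13 beside -0.87, or beside -0.01 with entries at 0 placed at their bound. TMM factors gave 2 higher and 1 lower with a median of 0.51, and unscaled counts 0 higher and 7 lower. With library totals, let-7g-5p, of the let-7 family that restrains growth genes, was at 3.55 in Drosha_KO (edgeR adjusted p = 1.74e-05) and miR-26b-5p at 1.13 (edgeR adjusted p = 0.00920). In Dicer_KO 6 of 7 were lower, where 42.6% of all entries were, with a median of -2.56 beside -2.78, or beside -0.81 with entries at 0 placed at their bound. DESeq2 size factors left 3 of 7 lower there, with a median of -1.18. In Ago12_KO 1 was lower and none higher, where 25.8% of all entries were lower and 28.7% higher. The list median was 0.09 beside -0.02, and turned to -0.55 with TMM factors, -0.13 with DESeq2 size factors and -2.75 unscaled. miR-26a-5p was at 0.11, 0.16 and -0.22 in Dgcr8_KO, Drosha_KO and Ago12_KO (edgeR adjusted p = 0.660, 0.560 and 0.432) and at -4.21 in Dicer_KO (edgeR adjusted p = 4.00e-07). Since miR-26a-5p was also singled out for its likeness to the guides in these libraries, its values and p are a description only.

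How far other letter-named relatives part was read from entries named like the 2 guides. Among the entries tested, 221 pairs from 35 families had the same number and arm and differed only in the letter, and many of them overlap in members or share reads. Families with many letters give more pairs and so weigh more on the medians below. Likeness of sequence was not required. The difference in log2 fold change between miR-101a-3p and miR-101b-3p was 1.19 in Dgcr8_KO. The median size over the 214 pairs counted there was 1.49, and 127 pairs differed by more. In Drosha_KO the difference was 1.06, the median over 150 pairs was 1.68, and 95 pairs differed by more. In Ago12_KO the difference was 1.87, the median over 220 pairs was 0.92, and 50 pairs differed by more. With pairs kept only where both entries had at least 50 CPM in WT, the counts were 43 of 86, 43 of 76 and 11 of 90. The split of the miR-101 guides was thus at or below the median of such pairs in the Microprocessor mutants and above it in Ago12_KO. The pair was chosen because its guides part between the groups, while the other pairs were not. Its place among them is therefore a description only, and nothing is read from it. In Dicer_KO the pair has no measured difference, because miR-101b-3p had no count.

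**Figure D5:**
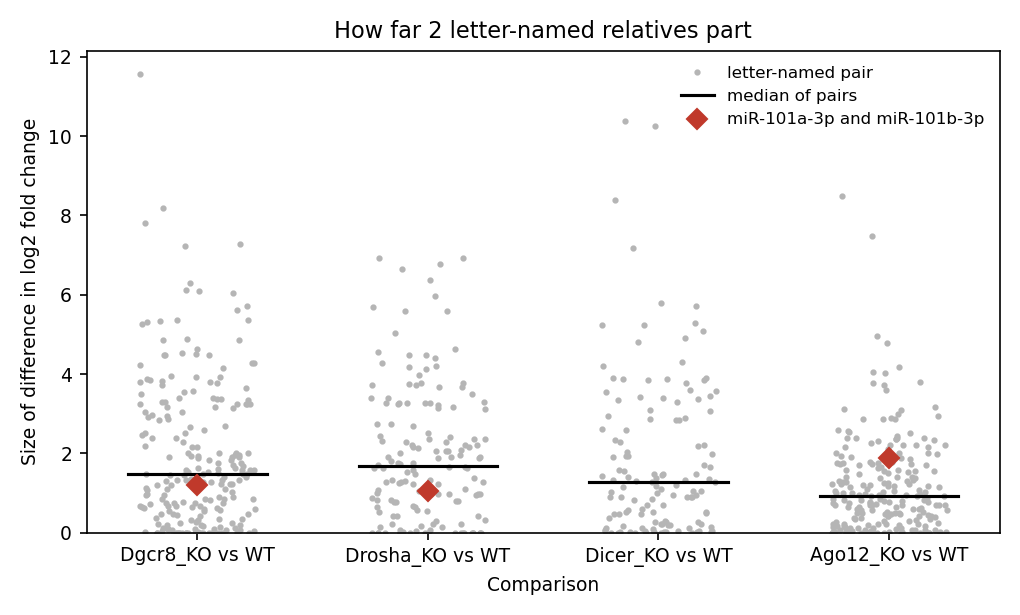
Size of the difference in log2 fold change against WT between entries of the same number and arm that differ in their letter (grey points, 214, 150, 128 and 220 pairs counted in both groups, jittered sideways), with their median (line) and the miR-101a-3p and miR-101b-3p pair (diamond). The diamond is at 1.19, 1.06 and 1.87 in Dgcr8_KO, Drosha_KO and Ago12_KO, beside medians of 1.49, 1.68 and 0.92.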

How the data were processed

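The values are raw counts of reads for each mature miRNA, deposited by the authors in 1 table and not normalized. The submitters' processing notes name Bowtie and mm10. Which program counted the reads, against which miRBase release, and what became of reads with several matches is not given in the sources used here. Titles and descriptions in the labels assign each column to a library.

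Counts were tested with edgeR 4.0.16 (R 4.3.3, quasi-likelihood, all 5 groups in 1 fit, 5 residual degrees of freedom), with column totals as library sizes and Benjamini-Hochberg adjustment over the 481 entries kept by filterByExpr (minimum count 10, or 38.54 CPM). All 3 members passed the filter; 1262 entries had a count. Column totals were used because TMM assumes that most entries do not change. An adjusted p under 0.05 made a call. The SE is the absolute log2 fold change divided by the square root of F. Shares have 95% Clopper-Pearson intervals (scipy 1.17.1). A fold against 0 uses 3 counts over the group; a CPM floor uses 3 counts per library.

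Members, lists and tests were chosen with earlier results of these data known. Entries named were the members, other miR-101 rows, seed relatives (bases 2 to 7), the 3 most like each member and up to 3 of the most abundant of each list; not all are printed, and miR-122-5p, miR-223-3p and miR-451a were named as markers at 0. The fits were also run on simulated data. That simulation gave all entries a common dispersion and all groups a shared mean profile before changes were added, unlike these libraries, so nothing is concluded from it. Alternatives were TMM factors, DESeq2 1.42.0 (its size factors in edgeR, and its own test), no scaling, no filter, a fit of the compared groups alone, a block for the replicate number and each library left out in turn. Totals without miR-3963, miR-6240, miR-6239, miR-6236 and miR-1983, called fragment-like here because they may be pieces of other RNAs, were an alternative added after the data were seen.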

Additional observations from a re-analysis of the deposited data

How the results depend on the processing

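Fold changes against WT kept their direction and their side of the threshold in 181 of 216 combinations of a member, a comparison and an alternative, and those between mutants in 144 of 160. The shares of miR-101a-3p among the guides and of miR-101a-5p among the arms moved by less than the spread between replicates under summed counts, and the first also with miR-101c added. Leaving out 1 of 2 replicates cannot move a mean by more than that spread, so it shows nothing about their stability. The cause of the changes below was not tested, except that leaving out libraries leaves fewer samples. Unscaled, log2 fold changes were -1.45, -3.06 and -2.69 in Dgcr8_KO, -4.62, -7.25 and -5.68 in Drosha_KO and -2.12, -1.71 and -4.04 in Ago12_KO for miR-101a-3p, miR-101a-5p and miR-101b-3p, and -7.25 for miR-101a-5p in Dicer_KO. With TMM factors miR-101a-3p was at 0.86 in Dgcr8_KO and 0.51 in Drosha_KO, miR-101a-5p at -2.27 in Drosha_KO, -1.99 in Dicer_KO and 0.56 in Ago12_KO, and miR-101b-3p at -0.55 in Drosha_KO. Without fragment-like entries in the totals miR-101b-3p was at 0.035 in Dgcr8_KO. With only 2 groups in the fit miR-101a-3p was at 0.77 in Ago12_KO. Leaving out 1 library gave ranges of 1.11 to 1.21, 1.07 to 1.19 and 0.76 to 0.78 for miR-101a-3p in Dgcr8_KO, Drosha_KO and Ago12_KO, 1.11 to 1.31 for miR-101a-5p in Ago12_KO, and -0.30 to 0.20 in Dgcr8_KO and -1.34 to -0.89 in Ago12_KO for miR-101b-3p. In Dicer_KO it gave -4.98 to -2.63 for miR-101a-3p, and miR-101a-5p was at -0.33 with DESeq2 size factors and in DESeq2 and at -0.78 without fragment-like entries.

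For Dgcr8_KO over Drosha_KO, miR-101a-3p was at -0.13 with DESeq2 size factors and in DESeq2 and ranged from -0.028 to 0.097 with 1 library left out, and miR-101b-3p was at 0.21 with TMM factors, 2.98 unscaled and -0.37 to 0.13 with 1 library left out. For Dicer_KO over Drosha_KO, miR-101a-5p was at 0.29 with TMM factors, 1.20 with DESeq2 size factors, 1.20 in DESeq2, 0.82 without fragment-like entries and -0.18 to 0.090 with 1 library left out. Calls over all entries went from 269 to 435 unscaled for Dicer_KO against WT. For Dgcr8_KO against Drosha_KO they went from 67 to 353 unscaled, 106 in DESeq2 and 29 to 94 with 1 library left out, the lowest without Dgcr8_KO replicate 2. For Dicer_KO against Drosha_KO they went from 211 to 112 with only these groups, and for Ago12_KO against Dicer_KO from 228 to 146 with DESeq2 size factors, 358 unscaled and 144 to 245 with 1 library left out, the lowest without Dicer_KO replicate 1.

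Replicate numbers share no stated source. With the replicate number as a block, calls over all entries were 339, 270, 265 and 255 against WT in Dgcr8_KO, Drosha_KO, Dicer_KO and Ago12_KO, beside 353, 278, 269 and 262, and no member's call changed. Deviations of same-numbered libraries correlated between -0.065 and 0.14. At 1 count in each Drosha_KO and Dicer_KO library, miR-101a-5p could not be followed there.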
